A study of Homo sapiens with 2 samples.

Results

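Chromosome 11 carries the cyclin D1 gene CCND1 on its long arm, and its accessible chromatin was described here from 2 ATAC-seq peak lists of Z-138 cells. The peaks were chosen by the chromosome name in the lists, which gave 2364 control and 1758 knockdown peaks, or 4122 of 96664 peaks on the 23 chromosomes analysed. The chromosome itself was selected with the overlap, pileup and background values of these lists known, so those values are a description. Z-138 is an established human line from mantle cell lymphoma, a cancer of mature B cells. One library came from cells with a control shRNA and the other from cells with an shRNA against SMARCA4, with doxycycline in both cultures. The peak names of both lists contain the term DMSO, a common solvent control, and the labels name neither ibrutinib nor venetoclax, the drugs of the series' design. Each group has 1 library, so no test between the groups was possible and intervals below cover counting error over peaks alone. Neighbouring peaks are not independent, and amplified reads are not independent molecules. The knockdown was not measured by these lists.

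In mantle cell lymphoma the hallmark translocation joins the CCND1 region of chromosome 11 to the immunoglobulin heavy chain locus of chromosome 14, and cyclin D1, which drives cells from G1 into S phase, is then made at high level. SMARCA4 is an ATPase of the SWI/SNF complexes, which use the energy of ATP to slide or evict nucleosomes and so keep enhancers and promoters open to transposase. In the gene order of RefSeq GRCh38, MYEOV is the named coding gene before CCND1, and LTO1, FGF19 and FGF4 follow it. FGF19 and FGF4 encode secreted fibroblast growth factors. The peak positions are of hg19, and no hg19 gene annotation or sequence was used here. Peaks are therefore given by position and not assigned to genes. Position 69400000, in the CCND1 region, divided the chromosome for the comparisons and is called the CCND1 position.

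Both libraries had most of their chromosome 11 peaks before the CCND1 position, and the knockdown list was the shorter one in each of the 27 windows of 5 Mb that held a peak. The knockdown number was 74.4% of the control number on the whole chromosome (95% exact interval 69.9 to 79.1%), against 75.4% over all chromosomes. Before the CCND1 position there were 1403 control and 1076 knockdown peaks, or 76.7% (70.8 to 83.1%). Beyond it there were 961 and 682, or 70.97% (64.2 to 78.4%), an interval that overlaps the first. Chromosome 10 and chromosome 12, which are close to chromosome 11 in length, had 73.4% and 80.1%. Peaks of chromosome 11 covered 481 kb (control) and 390 kb (knockdown), with median widths of 160 and 161 bp.

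**Figure D1:**
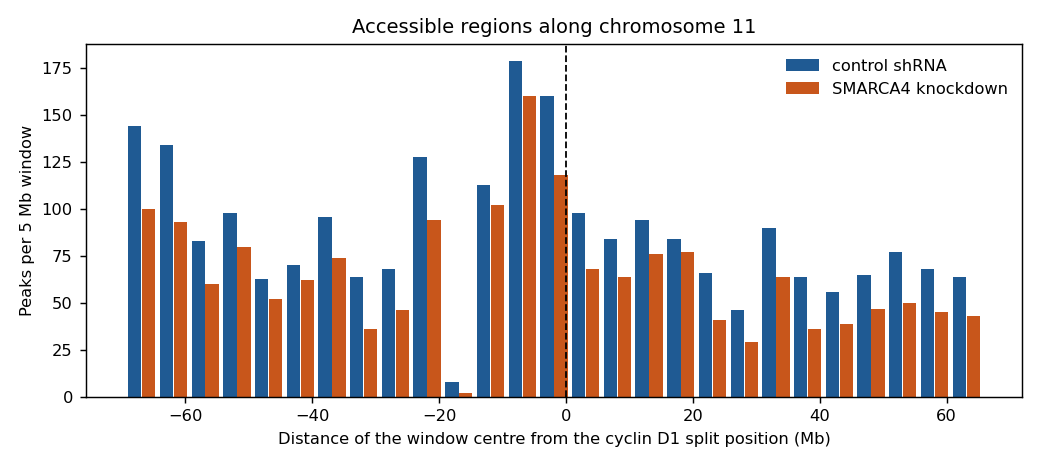
Peaks per 5 Mb window of chromosome 11 in the control (blue) and knockdown (orange) library, against the distance of the window centre from the CCND1 position (dashed line). The 3 windows ending at 70 Mb hold 113, 179 and 160 control peaks, and the near-empty window of 8 control and 2 knockdown peaks holds most of the longest stretch without a peak.

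Peak numbers varied more among the windows than the parts before and beyond the CCND1 position. The 3 windows from 55 to 70 Mb, which make up the long arm up to CCND1, were dense in both lists. They held 113, 179 and 160 control peaks and 102, 160 and 118 knockdown peaks. The window from 60 to 65 Mb was the fullest of the chromosome in both libraries. The window from 95 to 100 Mb had 46 control and 29 knockdown peaks, the lowest numbers apart from the window from 50 to 55 Mb. Among windows with at least 20 control peaks, the knockdown number ranged from 56.3% of the control number, in the windows from 35 to 40 Mb and from 105 to 110 Mb, to 91.7% in the window from 85 to 90 Mb. Windows hold few peaks, and for the 36 knockdown against 64 control peaks of the lowest windows the counting error is wide.

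The longest stretch with no peak in either list ran from 51556193 to 55125011 (3.57 Mb) and was taken as the divide between the arms, since the centromere lies there. The next, from 50228587 to 51395806 (1.17 Mb), was on its short-arm side. On the distal long arm, neither list had a peak from 115401692 to 116562537 (1.16 Mb). In the knockdown list the corresponding stretch was longer, from 114609915 to 116574285 (1.96 Mb). A stretch without peaks can hold lower summits: the lowest called on chromosome 11 had 3 reads (control) and 4 reads (knockdown), and among peaks with at least 80 reads per 10 kb around them the lowest had 5 reads in both lists.

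Around the CCND1 position itself, the peaks of both libraries were few and mostly low, though other parts of the chromosome were as thin. Within 700 kb on either side the control list held 17 peaks and the knockdown list 10, and 8 of each overlapped. For the control this was 47.1% (22.98 to 72.2%) against 51.3% given by fold, and for the knockdown 80% against 69.2%. The tallest of them had 18 reads (control) and 15 reads (knockdown), where the chromosome reached 59 and 65. Their median summits were 7 reads (control) and 6.5 reads (knockdown), against 7 and 9 reads in the whole part beyond the CCND1 position. From 69 to 70 Mb there were 7 control and 4 knockdown peaks. From 67 to 68 Mb there were 36 and 33, and from 91 to 92 Mb 6 and 1. The control stretch that holds the CCND1 position ran from 69258390 to 69453834 (195 kb). The knockdown stretch ran from 69061633 to 69489943 (428 kb) and was the 41st longest of 1757 stretches between its neighbouring peaks, whose median was 35.9 kb. The control stretch was the 131st of 2363, with a median of 27.4 kb. A stretch picked because it holds a given position is more often a long one. These ranks therefore do not mark the stretches as unusual.

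**Figure D2:**
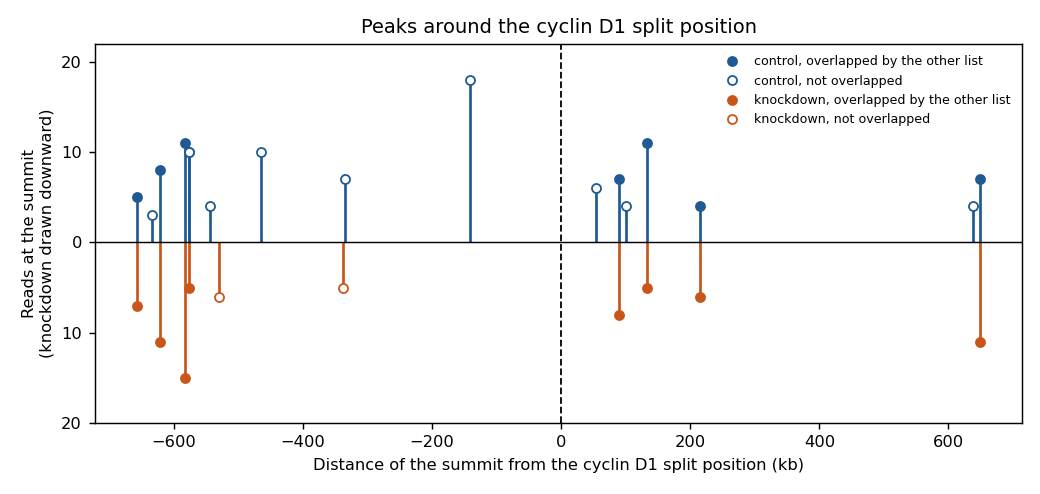
Summit pileup in reads of each peak within 700 kb of the CCND1 position, drawn upward for the control and downward for the knockdown library, against the distance of the summit in kb. Filled circles are peaks overlapped by a peak of the other list. The tallest control peak, with 18 reads 142 kb before the line, has no knockdown peak below it, and the knockdown list is empty from 338 kb before to 90.1 kb beyond the line.

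The peak just before the CCND1 position was the one with the most reads in this stretch and had no partner. It lay from 69258107 to 69258389 in the control list, with its summit 142 kb before the CCND1 position, a deposited fold of 13.4 over local background, 18 reads at the summit and 44 reads in the surrounding 10 kb. The nearest knockdown peak was 196 kb away. At the knockdown library's depth, 18 reads correspond to 24.2. By fold, 2 control peaks of the chromosome without a knockdown partner ranked above it. The peak just beyond the position, from 69453835 to 69453983, was weak, with a fold of 4.59 and 6 reads, and it too had no knockdown partner.

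Farther along, the lists shared 4 peaks within 700 kb. At 69490062 to 69490275 the control had 7 reads and the knockdown peak 8 reads. At 69532962 to 69533256 the control had 11 reads, where the knockdown peak had 5 reads. At 69614436 to 69614529 there were 4 and 6 reads. At 70049082 to 70049549 there were 7 and 11 reads. Control peaks of 4 reads, from 69500759 to 69500852 and from 70037828 to 70037978, had no partner. Before the position, control peaks of 10 and 7 reads, from 68934103 to 68934461 and from 69064920 to 69065102, also had none. The knockdown list had its own low peaks of 5 reads from 69061500 to 69061632 and of 6 reads from 68868933 to 68869077. Of these 4 shared peaks beyond the position, 3 had more reads in the knockdown and 1 had fewer. After scaling for depth the log2 ratios were -0.23, -1.56, 0.16 and 0.23, and read numbers this small carry wide counting error.

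Over the whole of chromosome 11, the overlap between the lists was close to that of the genome. A knockdown peak overlapped 1413 of the 2364 control peaks by at least 1 bp, or 59.8% (57.8 to 61.8%), against 60.5% of control peaks on all chromosomes. A control peak overlapped 1404 of the 1758 knockdown peaks, or 79.9% (77.9 to 81.7%), against 79.4%. Chromosomes 10 and 12 had 58.4% and 64.3% of control peaks overlapped. Weak peaks are overlapped less often than strong ones, so each share was set beside the share given by fold, which is the genome-wide overlapped share of peaks in the same band of fold, averaged over the peaks in question. For the control peaks of chromosome 11 this was 59.3%.

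Before the CCND1 position the overlapped share of control peaks was 62.3% (59.7 to 64.8%) against 59.8% given by fold, and beyond it 56.1% (52.9 to 59.3%) against 58.6%. After the share given by fold was taken off, the distal part was lower than the proximal part (difference -4.98 percentage points, interval -9.07 to -0.88). With the share given by summit pileup in place of fold, the difference was -2.53 points (-6.63 to 1.56), an interval that includes 0. The difference was not spread evenly over the part before the CCND1 position. The short arm had 59.4% of 956 control peaks overlapped, against 60.3% given by fold. The long arm from the centromere to the CCND1 position had 306 of 447, or 68.5% (63.9 to 72.7%), where fold gave 58.7% and pileup 58.1%. Peaks of this segment were wider, with medians of 178 bp (control) and 200 bp (knockdown). The short arm had 156 and 157 bp, and the part beyond the CCND1 position 155 and 153.5 bp. Within that part, the stretch up to 80 Mb had 167 and 183 bp. There 60.96% of control peaks were overlapped, against 60.5% given by fold. The bands of fold and pileup do not take width into account, and its bearing on the share was not tested. Set against the long arm up to the CCND1 position alone, the overlapped share beyond that position was lower again (difference -12.3 points, interval -17.6 to -6.73). In knockdown peaks the share with a control partner was 81.96% in the segment up to CCND1, against 79.1% given by fold, and 79.2% beyond it, against 79.6%.

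**Figure D3:**
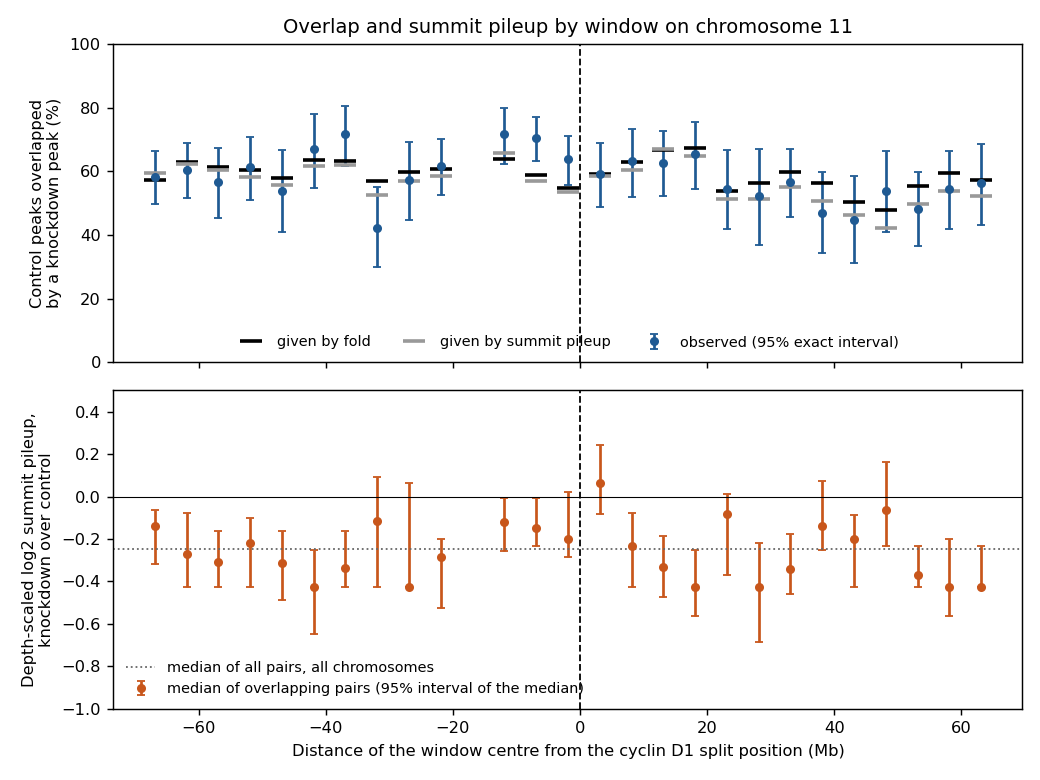
Top, share of control peaks overlapped by a knockdown peak in each 5 Mb window with at least 20 control peaks (points, 95% exact intervals), with the shares given by fold (black) and by summit pileup (grey). Bottom, median depth-scaled log2 ratio of knockdown to control summit pileup at overlapping pairs with its 95% interval, and the median of all chromosomes at -0.25 (dotted). The 3 windows just before the dashed line at the CCND1 position lie above the black marks, and 25 of 26 window medians of the ratio are below 0.

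Single windows showed the same segment. From 60 to 65 Mb, 126 of 179 control peaks had a knockdown partner, or 70.4% (63.1 to 76.97%) against 58.7% given by fold. From 65 to 70 Mb the number was 102 of 160, or 63.7% (55.8 to 71.2%) against 54.6%. These were the windows with the largest excess over the share given by fold, and the only 2 of the 26 whose interval lay above it. Among 26 windows, a 95% interval can miss the given share by counting error alone. Over the share given by pileup the excess was 13.5 and 10.2 points, and 11.6 points from 115 to 120 Mb, beyond the CCND1 position. The window from 35 to 40 Mb on the short arm was at the other end, with 27 of 64, or 42.2% (29.9 to 55.2%) against 57.1%, and was the 1 window with its interval below. With the share given by pileup, 52.4%, its interval included the given share. The window from 105 to 110 Mb followed with 30 of 64, or 46.9% (34.3 to 59.8%) against 56.2%. Of the 12 windows wholly before the CCND1 position, 7 had more overlapped peaks than fold would give, and of the 13 wholly beyond it, 3 had. Against the share given by pileup these numbers were 7 of 12 and 9 of 13, so the lower number beyond CCND1 was not present with that measure.

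Peaks found in both lists had, after scaling for depth, lower summits in the knockdown library, with a median close to that of the genome. Each control peak was paired with the knockdown peak that covered most of it, and the knockdown pileup was divided by 1.34, the ratio of the libraries' lowest backgrounds. Over 1413 pairs the median log2 ratio was -0.24 (95% interval of the median -0.27 to -0.20), against -0.25 over all 33358 pairs. The knockdown summit was at least 1.5-fold lower in 340 pairs, or 24.1% against 26.5% of all pairs, and at least 1.5-fold higher in 64 pairs, or 4.53% against 4.71%. Before the CCND1 position the median was -0.23 and beyond it -0.25, a difference of -0.02 (-0.10 to 0.03). With the division at 75 Mb the difference was -0.10 (-0.23 to -0.03), and against the long arm alone it was -0.10 (-0.23 to -0.04), intervals that exclude 0. The arms and segments varied around this, from -0.29 on the short arm and -0.15 on the long arm before the CCND1 position to -0.09 from the CCND1 position to 80 Mb and -0.42 from 80 to 90 Mb. Summits of a pair lay a median 29 bp apart.

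With scaling for depth, the window just beyond CCND1 had the highest ratio on the chromosome. From 70 to 75 Mb the median log2 ratio of 58 pairs was 0.06 (-0.08 to 0.24), and the next highest, from 115 to 120 Mb, was -0.06 over 35 pairs (-0.23 to 0.16). In the same window of 70 to 75 Mb the knockdown library had its highest median background, 73.5 reads per 10 kb, or 1.15 times the median of all its peaks, where the control had 37 reads, or 0.84 times. Divided by the local background of each library in place of depth, the median log2 ratio of that window was -0.12 (all chromosomes -0.21), and 6 windows were higher, among them 90 to 95 Mb at 0.07. The lowest window median, -0.42, was shared by 6 windows and is the value of a pair with equal read numbers in both lists.

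Among pairs with at least 20 reads in either summit, 322 in all, the knockdown was lower in 220 and higher in 102. Their median log2 ratio was -0.19. The limit of 20 reads was set before scaling, so summits of the deeper knockdown library pass it more easily. This can raise both the median and the number of higher pairs. The same count was not made over all chromosomes, where the median of pairs of any height was -0.25, so it shows no difference from the genome. The largest difference toward the control was at 82386905 to 82387206, with 47 control and 15 knockdown reads and a log2 ratio of -2.07. At 6793706 to 6794024 the reads were 24 and 8 (-2.01), and at 58414498 to 58415064 they were 26 and 9 (-1.95). The largest differences toward the knockdown rested on control peaks of few reads, which were 94, 94 and 212 bp wide. At 17229753 to 17229846 the control had 5 reads and the knockdown 22 (1.71), at 84610899 to 84610992 there were 6 and 20 (1.31), and at 125757894 to 125758105 there were 8 and 26 (1.28). The first and the last of these knockdown peaks lay among 119 and 140 reads per 10 kb, where the control had 80 reads at both. The knockdown peaks ran from 17229276 to 17229853, from 84610877 to 84611052 and from 125757373 to 125758090. Each was wider than its control peak, so the summits of a pair need not lie at the same place.

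Strongly enriched control peaks without a knockdown partner lay on both sides of the CCND1 position, 11 before and 9 beyond it at a fold of 10 or more. Together these were 20 of 405 control peaks, or 4.94% (3.04 to 7.52%), against 5.32% on all chromosomes. In the knockdown list 0 of 388 peaks of that fold lacked a control partner, which allows a share of up to 0.773% by a limit of 3 counts and 0.946% by the exact bound, against 0.469% on all chromosomes. A given fold needs less enrichment in the deeper knockdown library, so these counts do not compare peaks of equal strength. The strongest such control peak, from 83473650 to 83473975, had 29 reads, a fold of 17.3 and its nearest knockdown peak 39.0 kb away. The second, from 81580819 to 81581130, had 27 reads and a fold of 14.6, with a knockdown peak 10.6 kb away. After the peak next to the CCND1 position came one on the short arm from 44893325 to 44893559 and one from 123666911 to 123667084, with 15 reads each and folds of 12.6 and 12.04.

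The knockdown peaks of highest fold without a control partner were weaker, and 2 of the 5 lay beside a control peak. The peak from 125495454 to 125495607 had 14 reads and a fold of 9.95, with a control peak 20 bp away. The peak from 85955700 to 85955890 had 22 reads and a fold of 9.67, with a control peak 30 bp away. From 38432857 to 38432982 there was a peak of 14 reads and fold 9.56 and the nearest control peak was 133 kb away. The remaining pair, from 82638435 to 82638566 and from 11177662 to 11177793, had 12 and 11 reads, with control peaks at 2.84 and 7.83 kb.

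Wide peaks were more numerous in the knockdown list. Chromosome 11 had 40 control and 73 knockdown peaks of 600 bp or more, or 182.5% (122 to 275%) of the control number, where all chromosomes gave 136%, chromosome 10 gave 186% and chromosome 12 gave 127% (97.9 to 165%). The numbers were 25 and 46 before the CCND1 position and 15 and 27 beyond it. Peaks with a fold of 12 or more numbered 210 (control) and 234 (knockdown). On all chromosomes the control had more of them, 5569 against 5301. Equal fold is not equal strength in the 2 libraries, as stated above.

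The tallest summits of the chromosome were present in both lists. The first in both was the peak from 6255810 to 6256515 of the control list, with 59 reads and a fold of 15.6, whose partner had 65 reads and a fold of 15.5. Next in both was the peak from 82867678 to 82868246, with 53 control and 62 knockdown reads. In the control list the peak from 86748623 to 86749184 followed. It had 52 reads against 47 reads in the knockdown. In the knockdown list the peak from 105947964 to 105948648 followed, with 57 reads. Tall summits were frequent between 80 and 90 Mb: this stretch held 7.53% of the control peaks but 8 of the 20 with the highest pileup, and 8.70% of the knockdown peaks but 5 of the 20. From 90 Mb to the end, which held 25.2% and 22.4% of the peaks, there were 2 and 3.

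The local background varied along the chromosome in both libraries, with steps near 80 and 90 Mb in the share of peaks at the lowest background. On the long arm before the CCND1 position the control median was 44 reads per 10 kb (40 to 46). From that position to 80 Mb it was 34 reads (30 to 44). The knockdown medians were 64 (57 to 70) and 63 reads (47 to 73). These intervals overlap in both libraries, so the medians show no difference between the libraries there. The background of a peak is the number of reads in the 10 kb around it, or, where that is lower, a genome-wide level that is the lowest value in the list (25.5 control and 36.2 knockdown reads per 10 kb). It holds reads of the peak itself, of its neighbours and of low-level insertion in the region, and these and the number of DNA copies cannot be told apart here. On chromosome 11, 655 control peaks were at the lowest value, or 27.7% (25.9 to 29.6%) against 20.6% of all control peaks. Of the knockdown peaks 387 were, or 22.01% (20.1 to 24.0%) against 14.6%. Of the 23 chromosomes, 5 had a higher control share and 4 a higher knockdown share. Chromosome 10 had 23.8% (control) and 17.2% (knockdown), and chromosome 12 had 14.2% and 8.29%.

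**Figure D4:**
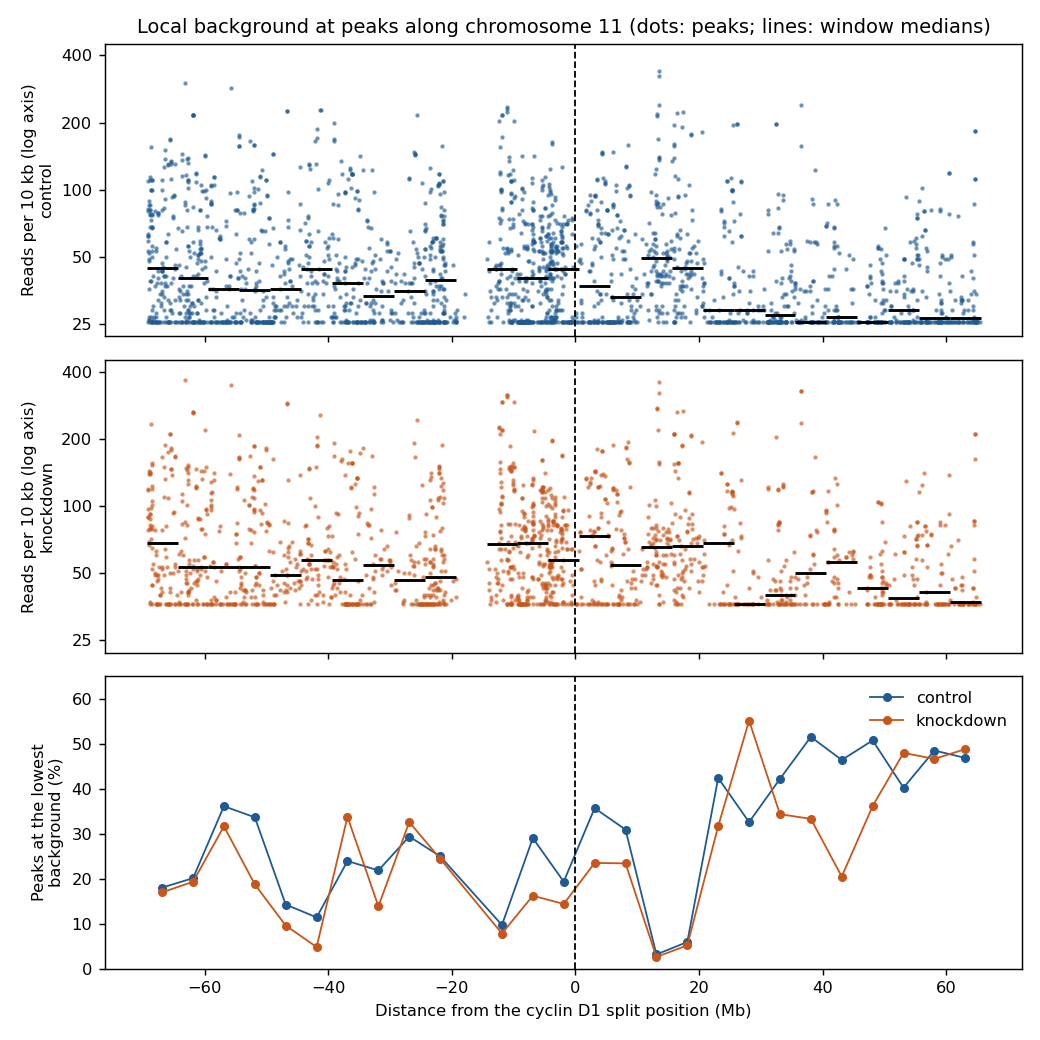
Reads per 10 kb around each chromosome 11 peak (dots, log axis) with the median of each 5 Mb window (black lines) in the control (top) and knockdown library (middle), and the share of peaks at the lowest background of their list (bottom), against the distance from the CCND1 position. The 2 windows from 80 to 90 Mb have 3.19 and 5.95% of control peaks at the lowest value, and the 9 windows after them have 32.6 to 51.6%.

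On either side of the CCND1 position the median background was 40 and 32 reads per 10 kb in the control, a ratio of 0.80 (0.74 to 0.87), and 55 and 51 reads in the knockdown, a ratio of 0.93 (0.86 to 0.99), which with the division at 65 Mb was 0.96 (0.88 to 1.02). The share of peaks at the lowest value was 22.6% before and 35.2% beyond in the control, and 17.9% and 28.4% in the knockdown. On the long arm before the position it was 20.6% (control) and 12.7% (knockdown). Within the distal part the values ran in 3 steps, which were set at 80 and 90 Mb after the values had been seen. From the CCND1 position to 80 Mb, 63 of 187 control peaks (33.7%) and 34 of 135 knockdown peaks (25.2%) were at the lowest value. From 80 to 90 Mb, 8 of 178 control peaks (4.49%, interval 1.96 to 8.66%) and 6 of 153 knockdown peaks (3.92%, 1.45 to 8.34%) were. From 90 Mb on, 267 of 596 control peaks (44.8%, 40.8 to 48.9%) and 154 of 394 knockdown peaks (39.1%, 34.2 to 44.1%) were.

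The same steps were present among peaks with no other peak of their list within 10 kb, whose background holds no reads of neighbouring peaks. Of these, 43.6% were at the lowest value from the CCND1 position to 80 Mb in the control, 3.51% from 80 to 90 Mb and 53.1% from 90 Mb. In the knockdown the shares were 37.5%, 5.43% and 52.6%. Median backgrounds of these peaks from 80 to 90 Mb were 43 (control) and 56.5 reads (knockdown), and from 90 Mb on both medians were at the lowest value of the list. The 2 windows from 80 to 90 Mb held 94 and 84 control peaks, the 2 before them 98 and 84, and the 9 after them between 46 and 90.

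Steps of 1 Mb, with limits chosen after the values had been seen, placed the edges more closely. Next to CCND1, 8 of 69 control peaks from 66 to 68 Mb were at the lowest background, and 19 of 40 from 68 to 71 Mb, a stretch that includes the CCND1 position. The knockdown numbers there were 6 of 59 and 8 of 23. From 68 to 69 Mb alone, which lies before the position, 12 of 20 control and 3 of 11 knockdown peaks were at the lowest background. Farther out, from 77 to 80 Mb, 10 of 41 control peaks were at the lowest background, and from 80 to 82 Mb 0 of 20. In the knockdown list these numbers were 7 of 31 and 0 of 21. At the far edge, 1 of 40 control and 0 of 34 knockdown peaks from 87 to 90 Mb were at the lowest value, and from 91 to 93 Mb 13 of 20 and 4 of 6 were. The step from 90 to 91 Mb, with 9 control and 5 knockdown peaks, was too thin to narrow this further.

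Windows with many peaks at the lowest value were counted on all chromosomes in the same way. Of the 26 windows of chromosome 11 with at least 20 control peaks, 8 had 40% or more of their control peaks at the lowest value, all of them after 90 Mb, against 60 of 584 windows on all chromosomes and 1 of 27 on both chromosome 10 and chromosome 12. Among knockdown peaks 4 of 26 windows reached 40%, against 28 of 574. On chromosome X 14 of 31 control and 12 of 30 knockdown windows did. Shares as low as those from 80 to 90 Mb in both lists were more common, with 68 windows on all chromosomes, 2 of them on chromosome 11.

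The highest control median of a window was 49.5 reads per 10 kb from 80 to 85 Mb, followed by 44.5 reads from 0 to 5 Mb and from 85 to 90 Mb, and the lowest, at the limit of the list, were from 105 to 110 Mb and from 115 to 120 Mb. The highest knockdown median was the 73.5 reads from 70 to 75 Mb, followed by 68 reads from 0 to 5, 60 to 65 and 90 to 95 Mb. The lowest were 36.2 reads from 95 to 100 Mb and 37 reads from 130 to 135 Mb. The libraries differed most from 90 to 95 Mb, where the control median was 29 reads, or 0.66 times that of all control peaks, and the knockdown median 68 reads, or 1.06 times. That window had 66 control peaks, 28 of them at the lowest value, and 41 knockdown peaks, 13 of them at the lowest value. Medians depend on which peaks entered each list. Across the 26 windows the share of peaks at the lowest value in one library went with that in the other (Pearson r = 0.77 over windows that share their positions and many of their peaks, given as a description).

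Pileups of the background segments differed as well. Control peaks had a median of 9 reads at the summit from 80 to 90 Mb and 7 reads from 90 Mb on, and knockdown peaks had 10 and 9 reads. From the CCND1 position to 80 Mb the medians were 8 reads (control) and 11 reads (knockdown). The knockdown median was thus highest in that segment and did not follow the steps of the background. The lowest summit called was 4 reads in the control from 80 to 90 Mb and 3 reads from 90 Mb on. The knockdown number of peaks was 86.0% of the control number from 80 to 90 Mb (68.8 to 107%) and 66.1% from 90 Mb on (58.1 to 75.2%). Control peaks were overlapped in 64.0% from 80 to 90 Mb, against 67.0% given by fold, and in 52.2% from 90 Mb on, where fold gave 55.5% and pileup 50.5%. The direction of the latter difference depends on the measure of strength, and the interval of the share (48.1 to 56.3%) includes both given values. The fold contains the background, and its part in this was not tested.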

How the data were processed

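ATAC-seq was done on Z-138 cells with a control shRNA or an shRNA against SMARCA4, 1 library each, grouped by genotype label. Per the submitters' processing notes, bcl2fastq 2.17.1.14, BWA, MACS2 and hg19 were used; parameters, read shift and filters: not given in the sources used here. The deposited lists hold, per peak and library, a fold (a ratio of summit to background, with 1 read added to both), −log10 p and −log10 q values, and a score derived from q, all as the authors' caller gave them; other deposited values are coordinates. The autosomes and chromosome X were analysed.

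From fold and −log10 p, the summit pileup and the background were solved for each peak (Poisson tail). The deposited −log10 p came back within 4.2e-05, and all backgrounds above the lowest were whole reads per 10 kb (tolerance 0.02). The script was tested on simulated peaks. Recovered depth, under an assumed genome of 2.7 Gb, was 6.89 M (control) and 9.76 M (knockdown) reads or fragments. Shares given by strength used 13 bands of fold or 15 of pileup. Intervals are exact binomial (Clopper-Pearson, 95%), for medians from order statistics, and for differences and ratios combined from both sides' intervals. Peaks were placed by summit. Windows with fewer than 20 control peaks got no share.

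Named regions were the 5 peaks of each list nearest the CCND1 position, the 5 of highest fold without partner and the 3 of highest pileup. The 3 pairs at each end of the pileup ratio and the 2 extreme windows of each measure were named too. Ties and some of the other peaks near the CCND1 position are also given. Members, lists and split were chosen with earlier results of these data known. Python 3.11.15, numpy 2.4.6, pandas 2.3.3 and scipy 1.17.1 were used. Planned annotation of genes was not run, for want of an hg19 annotation. Alternatives are given in the closing section.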

Additional observations from a re-analysis of the deposited data

How the results depend on the processing

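No paired analysis was possible because each group has 1 library, and leaving out a replicate could not be done for the same reason. Of 47 alternative values for 7 results, 27 stayed within the counting interval of the reported value. The knockdown number, 74.4% of the control, became 85.3% at a q-value of at most 1e-05 and 91.2% at a fold of at least 5. The overlapped share of control peaks, 59.8%, became 67.1% and 69.9% at these limits, 54.2% with 50% of the peak covered, 48.9% with 50% of both covered and 68.7% with lists of equal length. That of knockdown peaks, 79.9%, became 76.4% at a fold of 5, 74.1%, 65.7% and 73.7% under the latter 3 settings. Against the long arm alone, values beyond the CCND1 position moved to -12.3 percentage points for the overlapped share less that given by fold (reported -4.98), -0.10 for the log2 pileup ratio (reported -0.02), and 0.73 (control) and 0.80 (knockdown) for the background ratio. The background ratio, 0.80 in the control and 0.93 in the knockdown, was 0.66 and 0.75 with the split at 90 Mb and 0.70 and 0.82 without 80 to 90 Mb, both chosen after seeing the data, and 0.90 in the control among isolated peaks. Stricter limits and overlap rules change shares by construction; beyond that the cause was not tested. The distal difference in overlapped share kept its sign in all 11 alternatives, but its interval included 0 with pileup bands (-2.53), with the split at 65 Mb (-2.58, -6.59 to 1.44) and at a q-value of 1e-05 (-4.22, -9.20 to 0.72). The lowest summits called had 3 and 4 reads, so weak peaks found in 1 list stay undecided.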

Other observations

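The first 10 Mb of the short arm held 278 control and 193 knockdown peaks, dense for a stretch outside the long arm up to CCND1. In its first window 58.3% of 144 control peaks were overlapped, against 57.3% given by fold, and in its second 60.4% of 134, against 62.9%. The window from 30 to 35 Mb had partners for 67 of 74 knockdown peaks (90.5%, 81.5 to 96.1%), where fold gave 82.5%, and for 69 of 96 control peaks (71.9%, 61.8 to 80.6%), where fold gave 63.2%. Of the 2364 control peaks of chromosome 11, 39 were overlapped by more than 1 knockdown peak. Of the 1758 knockdown peaks, 45 were overlapped by more than 1 control peak. All chromosomes had similar shares, with 791 of 55124 control and 1133 of 41540 knockdown peaks. The control peak of highest fold on the chromosome, from 84425412 to 84425669, had 43 reads (fold 23.6), and its knockdown partner had 30 reads. The knockdown peak of highest fold, from 4629026 to 4629657, had 51 reads (fold 20.99). These values were singled out after they had been seen.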
